A study of Mus musculus with 36 samples.

Results

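The surfactant and lamellar body genes were described in mouse lung as a set of 10 genes expressed by the alveolar type 2 cell: Sftpa1, Sftpd, Sftpb, Sftpc, Napsa, Abca3, Lamp3, Lpcat1, Slc34a2 and Nkx2-1. They were chosen by gene symbol in the platform's annotation and not by their values. Each was read by 1 probe set, and the 10 genes were part of 19938 named genes measured, of which 14953 passed a filter on dim genes and were tested. All 10 passed that filter. Levels are given throughout as log2 of the deposited intensity plus 16, made comparable between arrays by quantile normalization, so a difference of 1 is a doubling.

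Surfactant is the film of phospholipid and protein that lowers surface tension in the alveolus. The type 2 cell assembles the phospholipids with the hydrophobic proteins SP-B and SP-C in lamellar bodies, secretes the contents into the airspace and takes part of the material up again. The collectins SP-A and SP-D are secreted proteins that bind microbial sugars and surfactant lipid. In A/J mice, the strain commonly used for chemically induced lung adenomas, cells with type 2 features are a recognised source of these tumours.

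The study measured total RNA of whole lung on Affymetrix Mouse Gene 1.0 ST arrays. The mice were of the strains A/J and C3H, both inbred, and no transgene is named in the labels. NNK, a tobacco-specific nitrosamine, was given as 4 weekly injections of 100 mg/kg, and NNK lungs were collected at weeks 3, 6, 9 and 12 after exposure. Untreated lungs came from weeks 0, 3, 6, 9 and 12, and neither a vehicle injection nor the age of the mice is given in the labels. The 18 groups of strain, treatment and week held 2 arrays each, 36 in all. The question was how the strains differ after NNK, before mature tumours had formed. The labels do not state separate mice for the 2 arrays of a group, so the p-values measure the spread between these arrays, which may be technical. In whole lung, a change in the number of type 2 cells and a change in RNA per type 2 cell cannot be told apart. Nor can RNA of these genes from other lung cells be told from that of type 2 cells.

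The arrays had median intensities of 285 to 347, and arrays of 1 group correlated at 0.979 to 0.997. The lung markers Ager of type 1 cells (13.06 to 13.47) and Scgb1a1 of club cells (13.53 to 13.95) were bright on every array. Thyroid tissue also expresses Nkx2-1, and its genes Tg (7.51 to 8.11) and Pax8 (7.43 to 7.99) were low on every array. Several arrays stood apart. Lor, a gene of cornified skin, was at 12.74 and 13.59 on the untreated A/J week 6 arrays and at 13.65 on 1 untreated A/J week 0 array, against at most 7.40 elsewhere. Array 1 of NNK C3H at week 3 had the highest level of the acute phase gene Saa3 (13.33), and it was the lowest of all 36 arrays for 4 of the 10 surfactant genes. Array 2 of untreated A/J at week 3 came next for Saa3 (12.32). The 4-week NNK results in A/J and their difference from C3H are also given without week 6 and the week 0 array with high Lor. So are the counts for the untreated strain difference and the untreated A/J trend. Only some results are given without the arrays with high Saa3.

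All 10 surfactant genes were bright, and their values on single arrays differed by less than a doubling. Over the 36 arrays Sftpd spanned the widest range of the set, 11.57 to 12.47. Sftpc, the gene of the small hydrophobic protein SP-C, spanned 13.82 to 14.05. Its probe set ranked between 11 and 20 of 35556 on every array, and a normalization by rank leaves such a probe set little room to move. On the deposited scale, before that step, Sftpc spanned 13.89 to 14.07. Sftpa1 (ranks 21 to 87), Slc34a2 (45 to 145) and Sftpb (49 to 132) were near the same end of the scale.

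**Figure D1:**
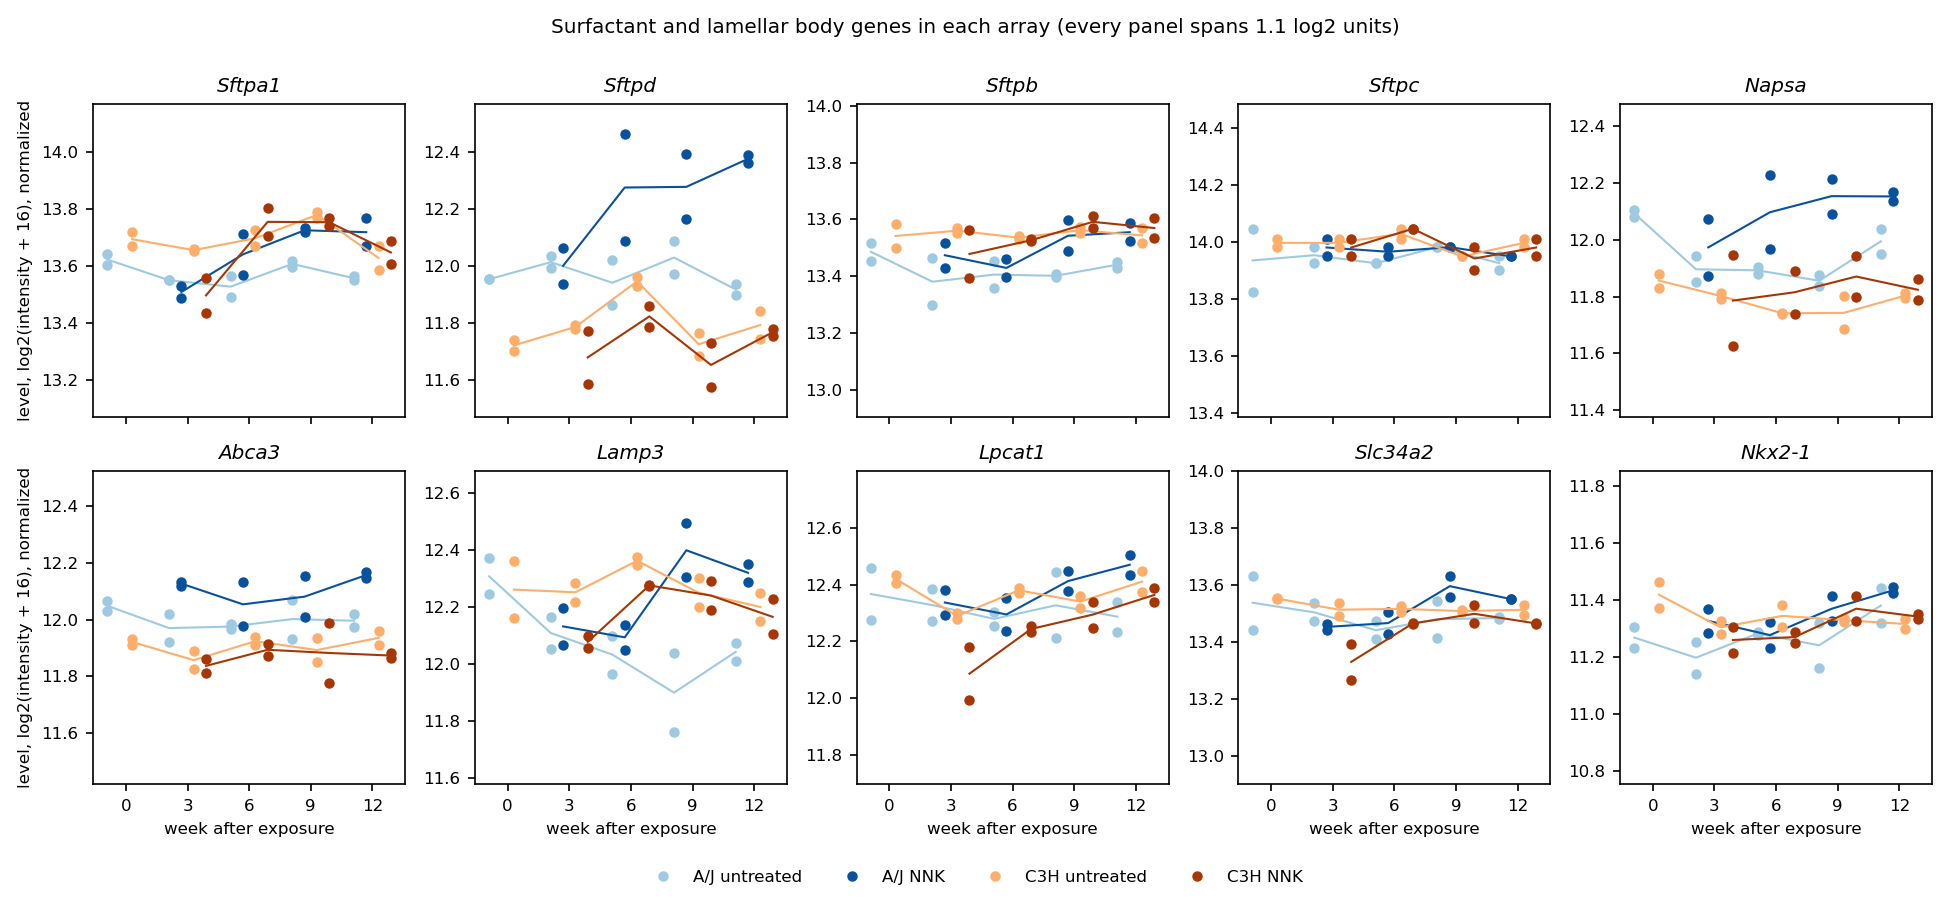
Level of each of the 10 surfactant genes on each of the 36 arrays, log2 of intensity plus 16 after quantile normalization (y axis), by week (x axis), strain and treatment. In the Sftpd panel the 8 NNK A/J arrays lie between 11.94 and 12.47, all above the 8 NNK C3H arrays, which lie between 11.57 and 11.86.

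In A/J lungs, 4 of the 10 surfactant genes rose after NNK, averaged over weeks 3 to 12, and 0 fell. They were Sftpd (SP-D), Lamp3 (a membrane protein of lamellar bodies), Napsa (the aspartic protease napsin A, which cuts the SP-B precursor) and Abca3 (the pump that loads phospholipid into lamellar bodies). Of all genes tested 10% were called in this comparison, and 7.44% were called higher. The rises were small, from 1.09-fold for Abca3 to 1.20-fold for Sftpd. All 10 genes were higher by their means, with a median difference of 0.09 against 0.01 over all genes tested, and 56.7% of all genes tested were higher. Without normalization, and with each array centred on its median, all 10 were higher as well.

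Of the collectin genes, Sftpd passed and Sftpa1 did not. Sftpd on the 8 untreated A/J arrays of weeks 3 to 12 had a lowest level of 11.86, a median of 11.98 and a highest of 12.09. On the 8 NNK A/J arrays the lowest was 11.94, the median 12.26 and the highest 12.47. The groups overlapped at their edges, with 5 of 8 NNK arrays above every untreated array. Such counts, here and below, were made for the surfactant genes only. No share of all genes stands beside them. Sftpd rose by 0.26 ± 0.05 (SE, 95% interval 0.16 to 0.36, limma adjusted p = 0.00141). Sftpa1, the gene of SP-A, had medians of 13.56 untreated and 13.69 after NNK, a difference of 0.09 ± 0.03 (SE, limma adjusted p = 0.0595) that did not pass. It passed on the deposited scale (limma adjusted p = 0.0146), with median centring (0.0198), with trended robust variances (0.0303) and with a filter at the 50th percentile (0.0478). Whether Sftpd and Sftpa1 differed from each other in response was not tested.

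Of the hydrophobic proteins, which act at the surface film itself, neither gene passed in the fit used throughout. Sftpb had a median of 13.42 on the untreated A/J arrays of weeks 3 to 12 and 13.50 on the NNK arrays, a difference of 0.09 ± 0.03 (SE, limma adjusted p = 0.0683). The difference was 0.11 without array 2 of untreated A/J at week 3, the array with high Saa3. Sftpb passed on the deposited scale (limma adjusted p = 0.021), with median centring (0.0235) and with trended robust variances (0.0386), and in each of these 3 settings 6 of the 10 genes were called. Sftpc was at 13.90 to 13.98 untreated and 13.95 to 14.01 after NNK, a difference of 0.02 ± 0.03 (SE, limma adjusted p = 0.65). The processing protease did pass. Napsa had a lowest level of 11.84, a median of 11.89 and a highest of 12.04 on untreated arrays, and 11.87, 12.11 and 12.23 on NNK arrays, with 6 of 8 NNK arrays above every untreated array. Its rise was 0.18 ± 0.05 (SE, limma adjusted p = 0.0138). The untreated A/J arrays of week 0 are not part of this comparison, and Napsa was at 12.10 and 12.08 on them, near the NNK median.

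Both lamellar body membrane proteins passed. Lamp3 had a lowest level of 11.76, a median of 12.04 and a highest of 12.16 on the 8 untreated A/J arrays, and 12.05, 12.24 and 12.49 on the 8 NNK arrays. It rose by 0.22 ± 0.04 (SE, limma adjusted p = 0.00349), and 5 of 8 NNK arrays lay above every untreated array of weeks 3 to 12. The untreated A/J arrays of week 0 are not part of this comparison. Lamp3 was at 12.37 and 12.24 on them, against an NNK median of 12.24. Its untreated level in A/J fell over the weeks, as given below. Abca3 had 11.92, 11.98 and 12.07 untreated and 11.98, 12.13 and 12.17 after NNK, with 6 of 8 NNK arrays above every untreated array. It rose by 0.12 ± 0.03 (SE, limma adjusted p = 0.031), and this was the least firm of the 4 calls. Leaving out 1 array at a time ended the Abca3 call in 9 of 36 cases, with adjusted p-values of 0.0138 to 0.0941 over the 36, whereas Sftpd, Lamp3 and Napsa passed in all 36. The 9 arrays were, of untreated A/J, array 1 of weeks 3, 6 and 9 and array 2 of week 12, and, of NNK A/J, array 2 of weeks 3 and 9, array 1 of week 6 and both arrays of week 12.

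The remaining 3 genes did not pass in A/J. Lpcat1, which makes the disaturated phosphatidylcholine of surfactant, differed by 0.07 ± 0.04 (SE, limma adjusted p = 0.23). Slc34a2, the phosphate transporter of the type 2 cell's apical membrane, differed by 0.04 ± 0.03 (SE, limma adjusted p = 0.431). Nkx2-1, the transcription factor that drives many genes of this set, differed by 0.08 ± 0.03 (SE, limma adjusted p = 0.133), with untreated levels of 11.14 to 11.44 and NNK levels of 11.23 to 11.45. Without week 6 and the untreated A/J week 0 array with high Lor, 2 of the 4 calls were left (Sftpd and Lamp3), and 492 of all genes were called, 3.29% of those tested. The differences themselves were then 0.23 for Sftpd, 0.27 for Lamp3, 0.18 for Napsa (limma adjusted p = 0.076) and 0.13 for Abca3 (limma adjusted p = 0.0972), close to those with all arrays.

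**Figure D2:**
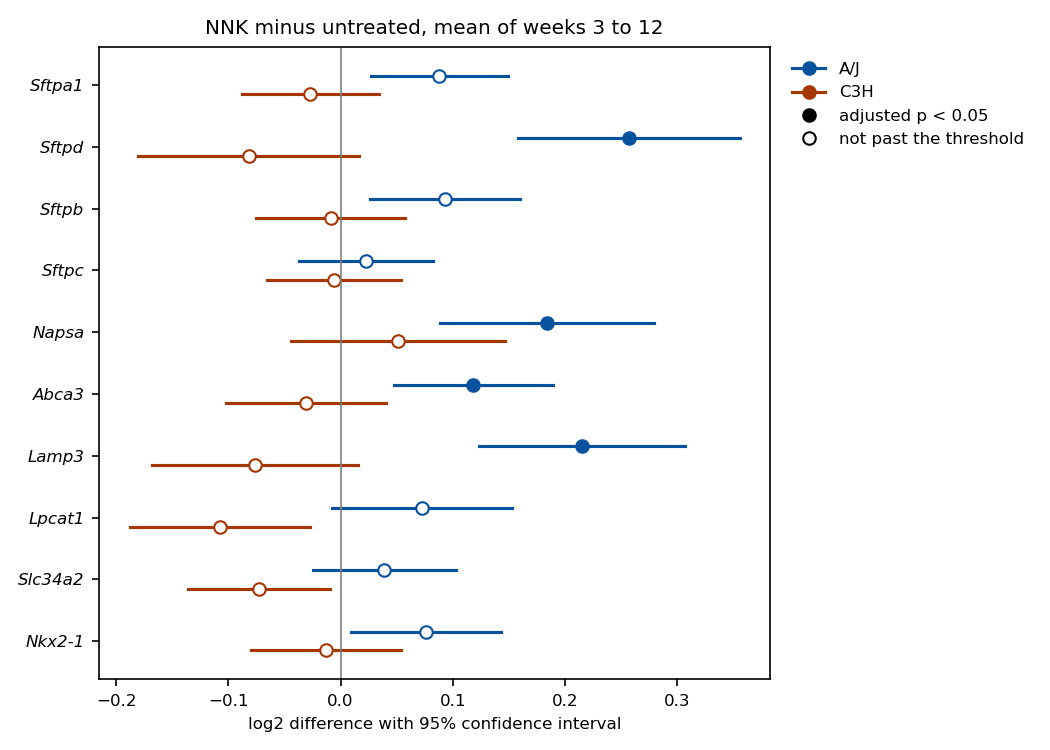
Difference between NNK and untreated arrays, averaged over weeks 3 to 12 (x axis, log2, with 95% intervals), for each of the 10 genes (y axis) in A/J and in C3H. All 10 A/J points lie above 0, from 0.02 for Sftpc to 0.26 for Sftpd, and 9 of 10 C3H points lie below 0.

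The sequences upstream of the start site were taken from RefSeq (GRCm38.p6), which gave a promoter for 7 of the 10 genes. They are shown for Abca3 and Lamp3, which rose after NNK in A/J, and for Sftpa1 and Sftpb, the other members whose windows hold the patterns in capitals. Each runs over the 250 bases before the start, 5′ to 3′ on the gene's strand, at chr14:41131538-41131787 (+) for Sftpa1, chr6:72304360-72304609 (+) for Sftpb, chr17:24351773-24352022 (+) for Abca3 and chr16:19706366-19706615 (-) for Lamp3. Capitals mark CTCAAG and TGTTTNC on either strand.
Sftpa1: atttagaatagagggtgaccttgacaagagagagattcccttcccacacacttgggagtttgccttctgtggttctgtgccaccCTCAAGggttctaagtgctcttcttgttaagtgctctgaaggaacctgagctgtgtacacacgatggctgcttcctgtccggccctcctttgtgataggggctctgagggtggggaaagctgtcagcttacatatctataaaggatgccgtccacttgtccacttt
Sftpb: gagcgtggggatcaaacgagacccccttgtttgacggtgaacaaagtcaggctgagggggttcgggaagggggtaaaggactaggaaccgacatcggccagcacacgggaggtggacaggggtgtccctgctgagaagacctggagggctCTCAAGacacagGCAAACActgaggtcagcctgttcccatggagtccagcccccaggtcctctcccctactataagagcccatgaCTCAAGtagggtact
Abca3: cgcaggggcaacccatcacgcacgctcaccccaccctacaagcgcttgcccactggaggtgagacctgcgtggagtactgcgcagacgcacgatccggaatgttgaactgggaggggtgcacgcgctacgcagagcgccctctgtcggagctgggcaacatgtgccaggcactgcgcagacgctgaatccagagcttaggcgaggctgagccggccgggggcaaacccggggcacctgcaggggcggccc
Lamp3: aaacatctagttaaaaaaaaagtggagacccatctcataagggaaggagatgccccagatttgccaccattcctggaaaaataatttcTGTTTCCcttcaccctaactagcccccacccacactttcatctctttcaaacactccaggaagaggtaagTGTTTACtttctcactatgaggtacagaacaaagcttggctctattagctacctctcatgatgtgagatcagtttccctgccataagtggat

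The pattern CAAG is the core letters bound by NKX2-1, CTCAAG is a longer form that contains it, and TGTTTNC is a pattern of forkhead factors. All were searched on both strands of the 250 bases, and they were chosen after matches had been seen, so the counts are a description. CAAG was in 5 of the 7 windows and in 86.6% of 32851 RefSeq promoters of the same length. CTCAAG was in 2 of 7, at base -166 of Sftpa1 and at bases -100 and -15 of Sftpb, and in 13.3% of all promoters. TGTTTNC was in 2 of 7, as GCAAACA at base -88 of Sftpb and as TGTTTCC at -162 and TGTTTAC at -92 of Lamp3, and in 17.8% of all promoters. A match of letters is not a binding site. The Abca3 window held CAAG but neither of the longer patterns.

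Taken week by week in A/J, Sftpd and Lamp3 passed at 1 time point each. Sftpd at week 3 was at 12.06 and 11.94 after NNK against 11.99 and 12.03 untreated. At week 6 it was at 12.47 and 12.09 against 12.02 and 11.86, a rise of 0.33 ± 0.10 (SE, limma adjusted p = 0.0362). At week 9 the values were 12.16 and 12.39 against 11.97 and 12.09, and at week 12 they were 12.36 and 12.39 against 11.94 and 11.90. The NNK arrays thus lay above both untreated arrays of the same week at weeks 6, 9 and 12 and not at week 3. The week 12 difference was the largest of the 4 for Sftpd, 0.46 ± 0.10, but its limma adjusted p was 0.0671, in a comparison where 0.0736% of genes were called. Without week 6 and the array with high Lor it was 0.0331.

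The week 6 call of Sftpd rests on single arrays. Its adjusted p was 0.112 without array 1 and 0.181 without array 2 of the untreated group, both of which had high Lor. Without array 1 of the NNK group the difference was 0.15 (limma adjusted p = 0.429). That array also had the highest levels of S100a8, a neutrophil gene (9.77), and of Top2a, a proliferation gene (9.71), of all 36 arrays, and their part in the result was not tested.

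Lamp3, by week in A/J, is given next. After NNK it was at 12.20 and 12.07 at week 3, 12.14 and 12.05 at week 6, 12.30 and 12.49 at week 9, and 12.35 and 12.29 at week 12. The untreated A/J arrays were at 12.16 and 12.05, 12.10 and 11.97, 12.04 and 11.76, and 12.07 and 12.01 at the same weeks. Both NNK arrays lay above both untreated arrays at weeks 9 and 12 only. Lamp3 rose by 0.50 ± 0.09 at week 9 (SE, limma adjusted p = 0.0128), and the week 12 difference of 0.28 ± 0.09 did not pass (limma adjusted p = 0.321). The lowest untreated value, 11.76, came from the week 9 array on which the liver gene Alb was at 11.71, and its part in the result was not tested. Without that array the week 9 difference was 0.36 (limma adjusted p = 0.14), and without array 2 of the NNK group it was 0.41 (limma adjusted p = 0.23).

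Over all 10 genes, the median NNK difference in A/J was 0.03 at week 3, 0.05 at week 6, 0.12 at week 9 and 0.16 at week 12. Over all genes tested it was 0.02, 0.03, 0.03 and -0.01. The numbers of surfactant genes called were 0, 1, 1 and 0, where 0.354%, 7.27%, 1.54% and 0.0736% of all genes were called. At an unadjusted p under 0.05 they were 1, 2, 4 and 5, beside 12.8%, 25.3%, 18.3% and 7.3% of all genes. A test of whether the NNK difference varied over the weeks called 0 of the 10 and 0.221% of all genes. No order of weeks was thus shown. An unadjusted p under 0.05 was found for 2 of the 10 and 15.6% of all genes. The smallest adjusted p in that limma test was 0.125, for Lamp3. At week 6, the choice of scale moved the values most: 9 of 10 surfactant genes were higher after quantile normalization, 6 on the deposited scale and 10 with each array centred on its median, and the median of all genes moved from 0.03 to 0.13 with that centring. Of all genes called at week 6, 60% were higher on the normalized scale and 39.6% on the deposited one, and at week 12 the shares were 100% and 88.2%.

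**Figure D3:**
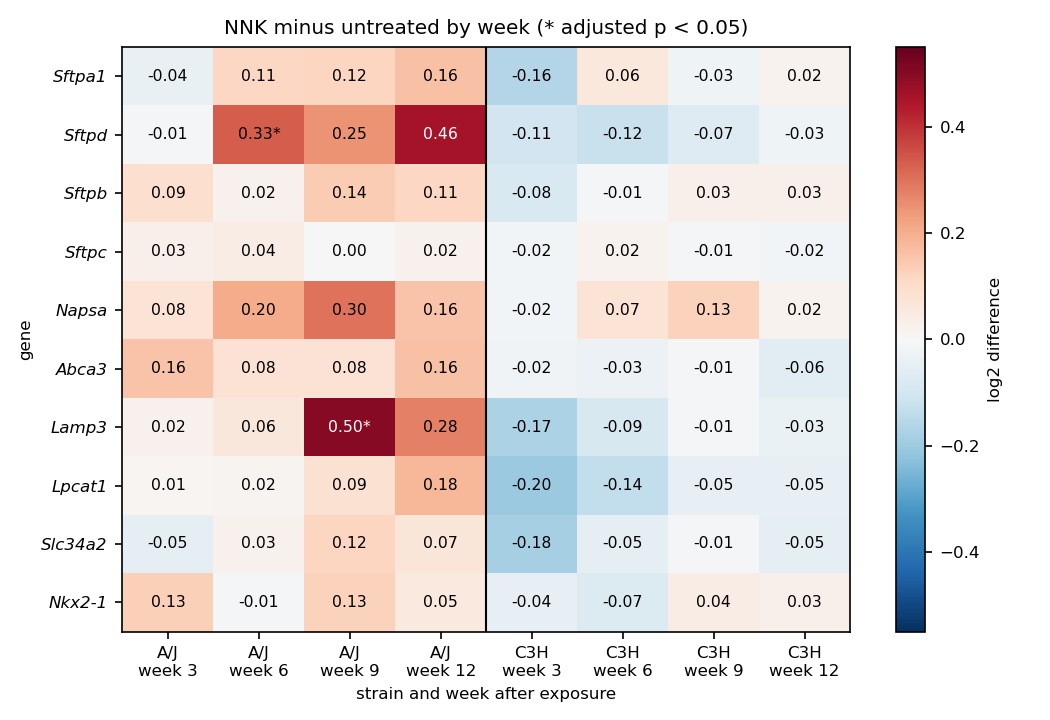
Difference between NNK and untreated arrays (colour, log2) for each of the 10 genes (y axis), by strain and week (x axis). Sftpd reaches 0.46 at week 12 and Lamp3 0.50 at week 9 in A/J. In C3H at week 3 all 10 genes lie below 0, by means that include the array with the highest Saa3.

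In C3H lungs 0 of the 10 surfactant genes were called after NNK by limma, in a comparison in which 12 genes, or 0.0803% of those tested, were called. At an unadjusted p under 0.05 there were 2 of the 10 and 936 of all genes. The median difference over the 10 genes was -0.03 against -0.01 over all genes, and 9 of 10 were lower by their means (8 of 10 on the deposited scale or with median centring). Sftpd had a lowest level of 11.68, a median of 11.79 and a highest of 11.96 on the 8 untreated C3H arrays of weeks 3 to 12, and 11.57, 11.76 and 11.86 after NNK. Its difference was -0.08 ± 0.05 (SE, 95% interval -0.18 to 0.02, limma adjusted p = 0.861). Lamp3 had medians of 12.27 untreated and 12.21 after NNK and the same difference of -0.08 ± 0.04 (SE, limma adjusted p = 0.861). Napsa was the exception in direction, at 0.05 ± 0.05 (SE, limma adjusted p = 0.912).

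Lpcat1 and Slc34a2 had the smallest p-values of the 10 genes in C3H. Lpcat1 spanned 12.28 to 12.45 on untreated and 11.99 to 12.39 on NNK arrays, and 5 of 8 NNK arrays lay below every untreated array of weeks 3 to 12. The difference was -0.11 ± 0.04 (SE, limma adjusted p = 0.64). Slc34a2 spanned 13.49 to 13.54 untreated and 13.27 to 13.53 after NNK, with 7 of 8 NNK arrays below every untreated array, and differed by -0.07 ± 0.03 (SE, limma adjusted p = 0.727). Neither passed over all genes. Both had their lowest values at week 3, Lpcat1 at 11.99 and 12.18 and Slc34a2 at 13.27 and 13.39.

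At week 3 the means of all 10 surfactant genes were lower in NNK C3H lungs, by 0.02 to 0.20. On the deposited scale 2 of them were higher, and with median centring 1. Both NNK arrays lay below both untreated arrays of that week for Sftpa1, Sftpd, Lamp3, Lpcat1 and Slc34a2 only. Napsa was at 11.63 on array 1 and at 11.94 on array 2, against 11.81 and 11.79 untreated. An unadjusted p under 0.05 was found for 3 of the 10 and 14.2% of all genes. None was called in that week's limma test (0.0936% of all genes were). At weeks 6, 9 and 12 the counts called were also 0, where 0.0134%, 0% and 0% of all genes were called. At each of these weeks 0 of the 10 had an unadjusted p under 0.05, beside 4.09%, 1.88% and 1.22% of all genes. Of all genes called at week 3, 28.6% were higher on the normalized scale and 42.9% on the deposited one, and at week 6 the shares were 100% and 66.7%. Saa3 and the joint lubricin gene Prg4 were at 13.33 and 12.52 on array 1 of NNK C3H at week 3 and at 11.76 and 9.67 on array 2. Their part in the week 3 values was not tested. Without array 1 the 4-week difference in C3H was -0.08 for Lpcat1 and -0.06 for Slc34a2 and for Sftpd.

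Whether NNK acted differently in the strains was tested on the difference itself. It was larger in A/J for Sftpd, by 0.34 ± 0.07 (SE, 95% interval 0.20 to 0.48, limma adjusted p = 0.0202), and for Lamp3, by 0.29 ± 0.06 (SE, 95% interval 0.16 to 0.42, limma adjusted p = 0.0292). In this test 1.13% of all genes were called and 1% were called higher in A/J, against 2 of the 10 surfactant genes. All 10 differences were above 0, with a median of 0.12 against 0.02 over all genes, and 58.7% of all genes were above 0. For Napsa and Abca3, which rose in A/J, the difference was 0.13 (limma adjusted p = 0.281) and 0.15 (limma adjusted p = 0.122), so their rises were not shown to differ between strains. Lpcat1 had a difference of 0.18 with a limma adjusted p of 0.0972, and the 95% interval of Sftpc ran from -0.06 to 0.11.

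Over the 36 fits that left out 1 array, Sftpd passed in all, with adjusted p-values up to 0.047, and Lamp3 lost its call in 6, with a range of 0.00805 to 0.0646. The 6 arrays were array 2 of untreated A/J at week 12, array 2 of NNK A/J at week 9, array 1 of untreated C3H at weeks 6 and 12, array 1 of NNK C3H at week 3 and array 2 of NNK C3H at week 6. Without array 2 of untreated A/J at week 3, the array with high Saa3, 4 of the 10 genes were called, among 5.84% of all genes called higher. Without week 6 and the untreated A/J array with high Lor, 0 were left (limma adjusted p = 0.14 for each) and 5 of all genes were called, while the differences were 0.30 for Sftpd and 0.34 for Lamp3.

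Between untreated lungs of the strains, Sftpd (0.18 ± 0.04, SE), Napsa (0.16 ± 0.04) and Abca3 (0.09 ± 0.03) were higher in A/J. Lamp3 (-0.19 ± 0.04), Sftpb (-0.13 ± 0.03), Sftpa1 (-0.12 ± 0.03) and Nkx2-1 (-0.07 ± 0.03) were lower. The limma adjusted p-values ran from 0.000363 for Lamp3 to 0.0481 for Nkx2-1. These 7 of 10 stand beside 56.1% of all genes called, of which 19.8% of those tested were higher and 36.3% lower, so the count is near the background and is no result about these genes. Without week 6 and the untreated A/J week 0 array with high Lor, 6 of 10 were called, beside 47.3% of all genes. Of 10 untreated A/J arrays, 9 lay below every untreated C3H array for Sftpb and 8 lay above every one for Abca3. These counts were not made over all genes, so how usual they are is not known. The Nkx2-1 call was lost when any of 22 single arrays of the 36 was left out, and the Abca3 call with each array centred on its median.

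Between NNK lungs, 5 of 10 were higher in A/J and 0 lower, where 53.3% of all genes were called, 23.5% higher and 29.8% lower. The count called is near the share of all genes called and is no result about these genes. Sftpd had medians of 12.26 in A/J and 11.76 in C3H and did not overlap, and its difference was 0.50 ± 0.05 (SE, 1.42-fold, limma adjusted p = 1.08e-08). How many of all genes did not overlap was not counted. Napsa differed by 0.27 (limma adjusted p = 3.6e-05), Abca3 by 0.23 (5.96e-06), Lpcat1 by 0.13 (0.00675) and Slc34a2 by 0.08 (0.0394). Lamp3, lower in untreated A/J than in untreated C3H, differed by 0.05 between the NNK lungs (limma adjusted p = 0.394). These comparisons share their arrays with the NNK comparisons above and add no independent evidence to them.

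**Figure D4:**
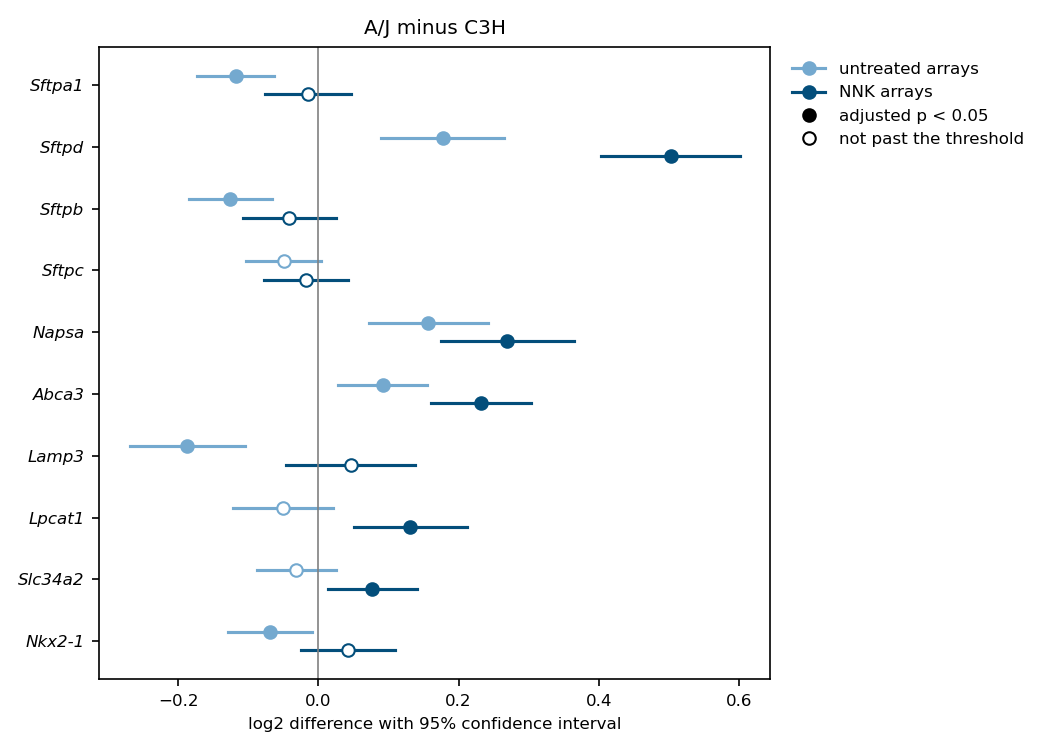
Difference of A/J minus C3H (x axis, log2, with 95% intervals) for each of the 10 genes (y axis), in untreated lungs of weeks 0 to 12 and in NNK lungs of weeks 3 to 12. Sftpd lies at 0.18 untreated and 0.50 after NNK, and Lamp3 at -0.19 and 0.05.

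Over the 12 weeks of untreated A/J lungs, Lamp3 was the 1 surfactant gene of 10 with a trend. It stood at 12.37 and 12.24 at week 0 and at 12.07 and 12.01 at week 12, and it fell by 0.30 ± 0.08 over 12 weeks (SE, limma adjusted p = 0.0112). In this comparison 22.8% of all genes were called and 5.27% were called lower. Without week 6 and the week 0 array with high Lor, 1 of 10 was called as well, beside 9.46% of all genes. The Lamp3 call was lost without array 1 of week 0 (limma adjusted p = 0.079) and without array 2 of week 12 (limma adjusted p = 0.0658). The median trend of all genes was 0.07 on the normalized and -0.01 on the deposited scale, and of the genes called 76.9% and 40.6% rose. In untreated C3H 0 of 10 were called (0.863% of all genes), with Lamp3 at -0.05. An unadjusted p under 0.05 was found there for 0 of the 10 and 12.1% of all genes. The trend of Lamp3 was not shown to differ between strains (difference -0.25, limma adjusted p = 0.271). That test called 0 of 10 and 1.32% of all genes. An unadjusted p under 0.05 was found in it for 2 of the 10 and 16.8% of all genes.

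The genes that make, pack, release and clear surfactant were taken from lists written from general knowledge. These lists and the marker lists below were chosen with earlier results of these data known, so their counts are a description. In A/J after NNK, 10 of 24 tested genes of surfactant lipid synthesis rose and 0 fell, with a median difference of 0.13, where 7.44% of all genes were called higher and the median was 0.01. They included Mfsd2a, a lysophospholipid transporter (0.95, limma adjusted p = 6.08e-05), Fabp5, a fatty acid binding protein (0.47, 0.000236), the desaturase Scd1 (0.28, 0.00038) and the fatty acid elongase Elovl1 (0.21, 0.00261). Of 24 genes of lamellar body assembly and propeptide processing, 2 rose and 0 fell (median 0.04): Ctsh, a cathepsin that trims the SP-B precursor (0.22, 0.00326), and Emc3, a subunit of the membrane protein insertion complex (0.11, 0.0472). In the list of secretion and feedback 1 of 16 rose, the kinase Lrrk2 (0.15, 0.0036), and in the list of clearance by macrophages 1 of 16, the chitinase-like Chil3 (0.48, 0.0011). Of 25 transcription regulators of type 2 cells, the epithelial factors Elf3 (0.39, 0.00604) and Grhl2 (0.13, 0.0256) rose and Foxp1 fell by 0.11 (limma adjusted p = 0.0157). The counts of these 4 lists, from packing to regulators, are near the share of all genes called and are no result about the lists. Without week 6 and the array with high Lor, where 2.59% of all genes were called higher, 9 lipid genes rose, and the packing, secretion, clearance and regulator lists held 0, 0, 1 and 0 that rose.

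Of 30 other markers of type 2 cells, 11 rose and 0 fell in A/J after NNK, with a median difference of 0.11, beside 7.44% of all genes called higher (7 of 30 beside 2.59% without week 6 and the array with high Lor). Lrg1 (0.90, limma adjusted p = 0.000755), the protease Ctsc (0.16, 0.00308), the anion transporter Slc26a9 (0.25, 0.00762) and the chemokine Cxcl15 (0.16, 0.00986) had the smallest p-values. In C3H, 0 of these 30 rose and 2 fell, Acoxl by 0.27 and Hc by 0.22 (limma adjusted p = 0.0241 for each), and in the 5 other lists 0 were called. The difference of the NNK changes was called higher in A/J for 7 of the 30 markers and for 2 of the 24 lipid genes, Fabp5 (0.50, limma adjusted p = 0.0228) and Mfsd2a (0.78, limma adjusted p = 0.0407), where 1% of all genes were. Without week 6 and the array with high Lor these counts were 0 and 0, with medians of 0.18 and 0.15 against 0.18 and 0.12. Of the 30 markers, 11 fell and 1 rose over the weeks in untreated A/J, with a median trend of -0.13, where 5.27% of all genes were called lower and 17.5% higher. On the deposited scale 13 fell and 0 rose, where 7.33% of all genes were called lower, and with median centring 7 fell and 1 rose.

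**Figure D5:**
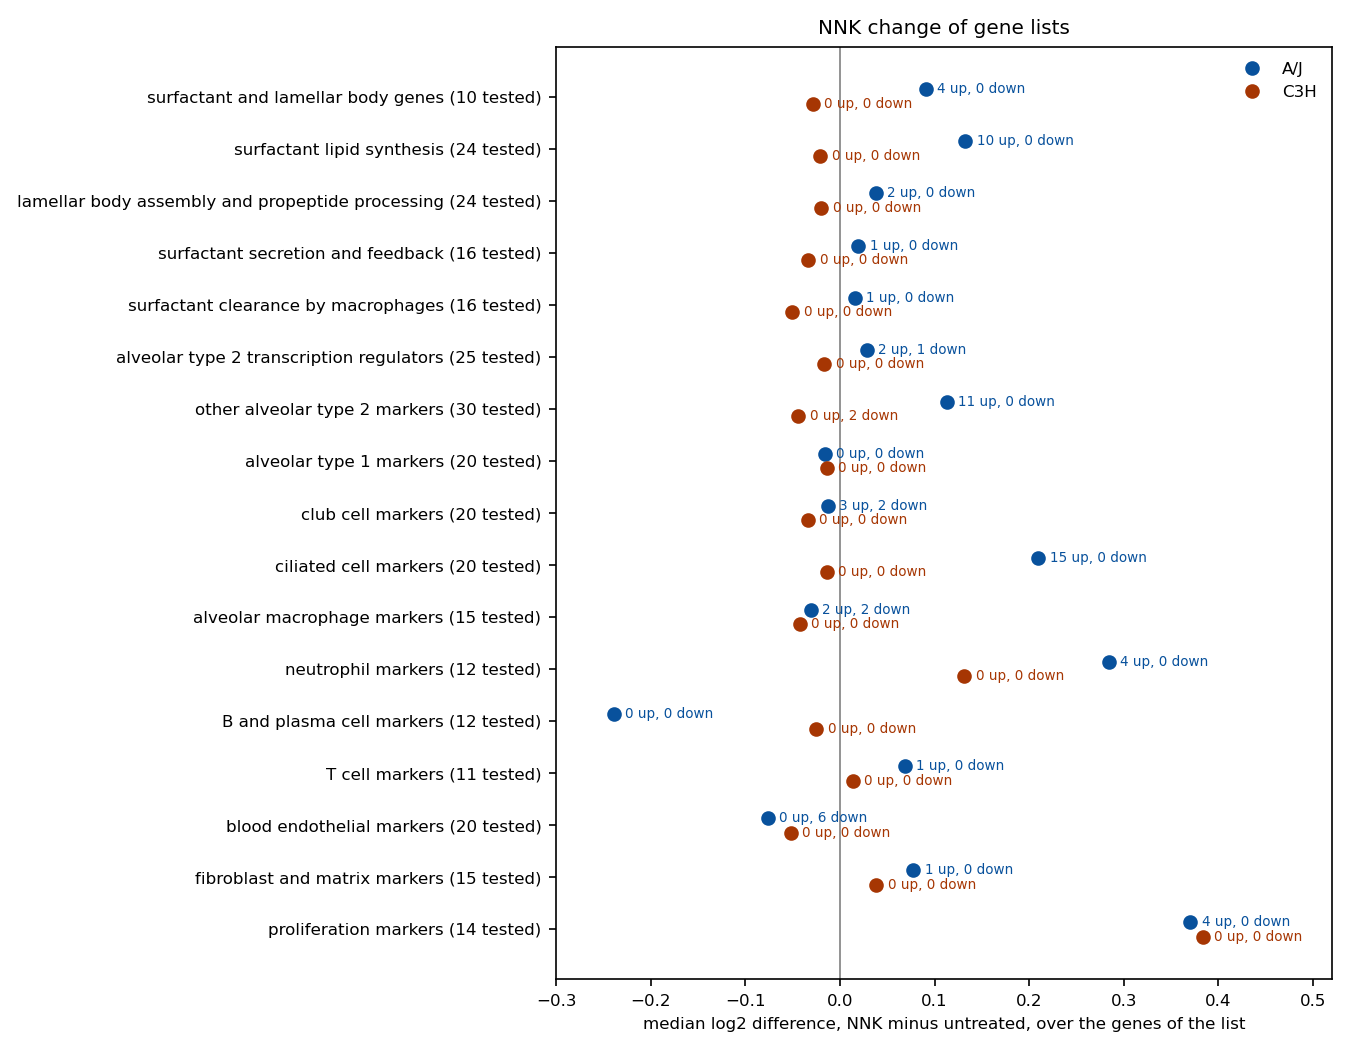
Median NNK difference (x axis, log2) over the tested genes of each list (y axis) in A/J and in C3H, with the numbers of genes called up and down printed beside each point. In A/J surfactant lipid synthesis lies at 0.13, the other type 2 markers at 0.11 and the surfactant genes at 0.09, against 0.01 over all genes.

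Markers of some other cells moved with NNK in A/J beside the surfactant genes. Of all genes tested 10% were called in this comparison, and 7.44% were called higher. Of 20 ciliated cell markers 15 rose and 0 fell, and their summed level was 13.98 to 14.33 on untreated and 14.04 to 14.47 on NNK arrays (all summed levels in log2). Of 14 proliferation markers 4 rose and 0 fell, with summed levels of 11.73 to 12.53 and 12.09 to 13.48. Of 12 neutrophil markers 4 rose and 0 fell, and their summed level over 15 measured genes was 12.61 to 13.25 and 13.01 to 14.02. Of 20 blood endothelial markers 0 rose and 6 fell, with summed levels of 16.43 to 16.61 and 16.41 to 16.52. Of 12 skin markers 0 rose and 7 fell, with week 6 included, with summed levels of 11.65 to 15.89 untreated and 11.71 to 11.93 after NNK. Of 20 type 1 markers 0 changed, and of 20 club cell markers 3 rose and 2 fell. In C3H 0 genes of these lists were called, where 0.0803% of all genes were. The median of the proliferation markers there was 0.38, against 0.37 in A/J. Without week 6 and the array with high Lor, 3.29% of all genes were called in A/J. The markers that rose were then 7 ciliated, 0 proliferation, 2 neutrophil and 1 skin marker. Those that fell were 1 endothelial and 0 skin markers. No marker of any list was at 0, and the part of these cells in the surfactant results was not tested.

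The 10 genes did not vary as 1 block. Over the 36 arrays the 45 pairs of genes had a median correlation of 0.34, with 10 pairs over 0.5 and 7 under 0, all points sharing the strains, the treatments and the normalization. Lpcat1 and Slc34a2 were the closest pair (r = 0.84, and 0.80 for deviations from the group means). Abca3, Napsa and Sftpd formed the next 3 pairs, at 0.76 to 0.79 over all arrays and 0.33 to 0.55 within groups. Sftpc with Napsa had the lowest value, -0.23.

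The genes most like the set were found from the mean of its 10 levels, each centred on its own mean, over 36 arrays. Chil1, a chitinase-like protein of type 2 cells, was the nearest (r = 0.81; 0.88 over the 18 A/J and 0.77 over the 18 C3H arrays). It rose by 0.14 in A/J (limma adjusted p = 0.0256) and differed by -0.10 in C3H (limma adjusted p = 0.666). Atp11a (r = 0.73), Ptprf (0.71), Nipal1 (0.68), Tmem116 (0.68), Sgpp2 (0.67), Npc2 (0.67), Ctsc (0.67), Gpam (0.66) and Lrrk2 (0.66) followed. For these, r over the A/J arrays alone ran from 0.65 (Nipal1) to 0.78 (Npc2). Over the C3H arrays alone it ran from 0.38 (Npc2) to 0.81 (Sgpp2), with Lrrk2 at 0.51 and Ptprf at 0.56. Sftpd alone was nearest to Npc2, a sterol-binding lysosomal protein (r = 0.94), and Npc2 rose by 0.21 in A/J (limma adjusted p = 0.00414). Among the other members, the nearest genes were Fam168b to Abca3 (0.86), Tsc2 to Sftpb (0.83), Fbp2 to Napsa (0.81), Herc6 to Sftpa1 (0.77), Zdhhc3 to Lamp3 (0.76), Gse1 to Nkx2-1 (0.71) and Focad to Sftpc (0.67). For the nearest genes of single members, r within each strain was not taken.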

How the data were processed

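Total RNA of 36 mouse lung samples was measured, 2 arrays in each of 18 groups. The authors deposited 1 linear intensity per probe set and array. Per the submitters' processing notes, PLIER and Affymetrix Expression Console were used. Their versions, settings and genome build are not given in the sources used here. Probe sets were named by the platform annotation: of 35556, 21789 had 1 symbol, 1621 several and 12146 none. Values were turned to log2(intensity + 16), which understates changes of dim genes, and quantile-normalized, since array medians spanned 0.268. Each gene was read from its probe set of highest mean, and genes under the 25th percentile of mean level were not tested. No 2 arrays held identical values.

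All comparisons came from 1 limma fit (limma 3.58.1, R 4.3.3) with a mean per group and 18 residual degrees of freedom, and p-values were adjusted over the 14953 genes by Benjamini-Hochberg, with a threshold of 0.05. An NNK change is the mean of 4 weekly differences. A trend is a slope over the 5 untreated weeks, given per 12 weeks. The scripts were tested on simulated data. The members and lists were chosen with earlier results of these data known. All 10 members were named, and at most 4 genes of each other list, those with the smallest p among the genes called. The genes most like the set were the 10 with the highest correlation. Alternatives were the deposited scale, a pseudocount of 1, other filters, variance and weight models, the mean of all probe sets, 1 strain only, the array number as a block and leaving out arrays. Centring on medians, and the counts of the other lists under alternatives, were added after seeing the data. The number of arrays limits the precision.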

Additional observations from a re-analysis of the deposited data

Results flagged for a closer look

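The NNK change of Sftpd differed between the strains by 0.34 (limma adjusted p = 0.0202), with the higher value in A/J. The NNK change of Lamp3 differed by 0.29 (limma adjusted p = 0.0292), also higher in A/J. In 1 of 40 checks of a gene in a pooled group, an array lay far from the others: Sftpb was at 13.39 on array 1 of NNK C3H at week 3, against 13.52 on the next lowest of the 8 NNK C3H arrays. Chance gives such a gap in about 1 of 20 groups.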

How the results depend on the processing

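The counts of surfactant genes called moved by over 1.5 times only as follows. Without week 6 and the untreated A/J week 0 array with high Lor, 2 in place of 4 were called for NNK in A/J and 0 in place of 2 for the difference between strains. The A/J trend call of Lamp3 went from 1 to 0 with the arrays of 1 strain and with array median centring. The week 6 count in A/J went from 1 to 0 on the deposited scale, with array weights and with the arrays of 1 strain. The week 9 count went from 1 to 2 on the deposited scale and to 0 with array weights and with 1 strain. The week 12 count went from 0 to 1 with array weights, with trended robust variances, with the dim-gene filter at the 50th percentile, or without week 6 and that array. Leaving out 1 array at a time gave 1 to 4 calls for the difference between strains, 0 to 1 for the A/J trend, 0 to 1 for weeks 6, 9 and 12 in A/J and 0 to 1 for the variation over weeks in A/J. No gene reversed a called direction, and the causes were not tested. Over all alternatives and left-out arrays the limma adjusted p for NNK in A/J ran from 7.01e-05 to 0.0267 for Sftpd, 0.000207 to 0.0369 for Lamp3, 0.00345 to 0.076 for Napsa and 0.00678 to 0.114 for Abca3. For the difference between strains it ran from 0.000978 to 0.14 for Sftpd and 0.0046 to 0.14 for Lamp3. For the A/J weeks it ran from 0.00201 to 0.429 (Sftpd, week 6), 0.000623 to 0.23 (Lamp3, week 9) and 0.0126 to 0.637 (Sftpd, week 12), and for the A/J trend of Lamp3 from 0.00223 to 0.079.

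No pairing by array number common to all groups was seen: over 153 pairs of groups, same-numbered deviations had a median correlation of 0.02 (-0.38 to 0.42). Of these pairs 47 were over 0.1 and 31 under -0.1, and a pairing within some of the groups was not tested. With the number as a replicate block the counts of surfactant genes were the same in every comparison, 4 for NNK in A/J, where 1567 of all genes were called.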

Other observations

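The alveolar macrophage takes up and breaks down spent surfactant, and its genes differed between the untreated strains. Of 16 tested genes of surfactant clearance by macrophages, 10 were lower and 4 higher in A/J than in C3H. Their median was -0.30 against -0.04 over all genes tested, of which 56.1% were called, 36.3% lower and 19.8% higher. The summed level of the list was 14.39 to 14.59 on untreated A/J and 14.48 to 14.63 on untreated C3H arrays. Its mean level was 9.653 to 9.895 and 9.901 to 10.04. The genes named next were all lower in A/J, and the 4 higher ones are not named. Pparg, a nuclear receptor that macrophages need for lipid handling, was lower in A/J by a difference of -0.54 ± 0.03 (SE, limma adjusted p = 1.34e-11), and the cholesterol exporter Abcg1 by -0.51 ± 0.05 (SE, limma adjusted p = 3.02e-09). Csf2rb, the shared chain of the GM-CSF receptor, differed by -0.71 ± 0.07 (SE, limma adjusted p = 9.4e-09). Chil3 spanned 7.99 to 9.34 on the 10 untreated A/J and 9.26 to 10.10 on the 10 untreated C3H arrays, a difference of -0.96 ± 0.08 (SE, limma adjusted p = 6.87e-10). Fewer macrophages and less RNA per macrophage cannot be told apart here.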
